A study of Mus musculus with 4 samples.

Results

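Genes of the p53 pathway and of the cyclin-dependent kinase (CDK) inhibitor families were followed in sorted mouse lung endothelial cells. The 10 genes are the CDK inhibitors Cdkn1a, Cdkn1b, Cdkn1c, Cdkn2a and Cdkn2b, the tumour suppressor Trp53, and Mdm2, Gdf15, Ccng1 and Sesn2. They were chosen by gene symbol, and all 10 are among the 17915 coding genes of the deposited table. Every library came from the genotype Cdh5-CreER;aSMA-LSL-Dre;NR1. Cdh5-CreER is a recombinase that tamoxifen switches on in endothelium. aSMA-LSL-Dre is a second recombinase placed at the alpha smooth muscle actin gene behind a stop that Cre removes, and NR1 is the reporter. Tamoxifen was given 5 times, and transverse aortic constriction (TAC) lasted 6 weeks. Endothelial cells were ZsGreen+, and became tdTomato+ once the actin locus was switched on, however briefly. The question was what that activation means for gene expression, and bulk RNA was sequenced in 2 libraries for each colour. Both groups came from mice with TAC, so no library here shows an unoperated lung. The labels call the libraries biological replicates and do not say which mice they came from, so p-values measure only the spread between these libraries.

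p53 is a transcription factor that is kept scarce by Mdm2, a ubiquitin ligase and itself a p53 target, and that accumulates after DNA damage and other stress, largely through protein stability rather than through its own mRNA. Its targets include Cdkn1a, which halts the cell cycle, and genes of repair, metabolism and cell death. CDK inhibitors form the Cip/Kip family, which binds cyclin and CDK complexes broadly, and the Ink4 family, which binds the cyclin D partners Cdk4 and Cdk6. In endothelium these genes are known from growth arrest, from vessel maturation and from senescence.

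The binding sequence of p53 was looked for first, because the set mixes known p53 targets with inhibitors that are not, and the letters near a start site differ among them. The p53 consensus, a pair of 10-base repeats with no spacer, was searched in RefSeq promoter windows of GRCm38.p6, each 300 bases long with 250 before a start and 50 after it. The consensus reads the same on both strands. Of the 10 genes 9 had a window, with 12 windows in all; Cdkn1c is not in that table. Within 1 mismatch the consensus was found for Cdkn1a and for Ccng1, and in 29 of all 32851 windows (0.0883%). The lines below give each match in capitals with the upstream bases around it.
Cdkn1a: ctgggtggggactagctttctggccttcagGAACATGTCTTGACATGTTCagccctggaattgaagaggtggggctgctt
Ccng1: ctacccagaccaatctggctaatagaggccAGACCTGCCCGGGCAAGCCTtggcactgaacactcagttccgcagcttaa
The Cdkn1a match lies 51 to 32 bases before the upstream start, at chr17:29090928-29090947 on the plus strand, and its mismatch is at position 11 of the 20-base consensus, counted from the 5′ end. The Ccng1 match lies 195 to 176 bases before its start, at chr11:40755462-40755481 on the minus strand, and its mismatch is at position 5. The same matches, with the 4-base core of each repeat in capitals, read as follows.
Cdkn1a: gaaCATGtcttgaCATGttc
Ccng1: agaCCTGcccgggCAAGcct
Both cores of the Cdkn1a match are CATG, while those of the Ccng1 match differ from it and from each other. The next best windows were those of Trp53 and Cdkn1b with 3 mismatches, a level reached by 6.29% of all windows. Best matches in the other windows, those of Cdkn2a, Cdkn2b, Mdm2, Gdf15 and Sesn2 and the downstream start of Cdkn1a, held 5 or 6 mismatches, and 76.6% of all windows had one with at most 5. The amino acid response motif TGATGNAA, read on both strands and known from genes that Atf4 induces, was in none of the 12 windows and in 3.97% of all windows. A match is a string of letters and not evidence of binding, and p53 sites farther from a start were not searched.

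**Figure D1:**
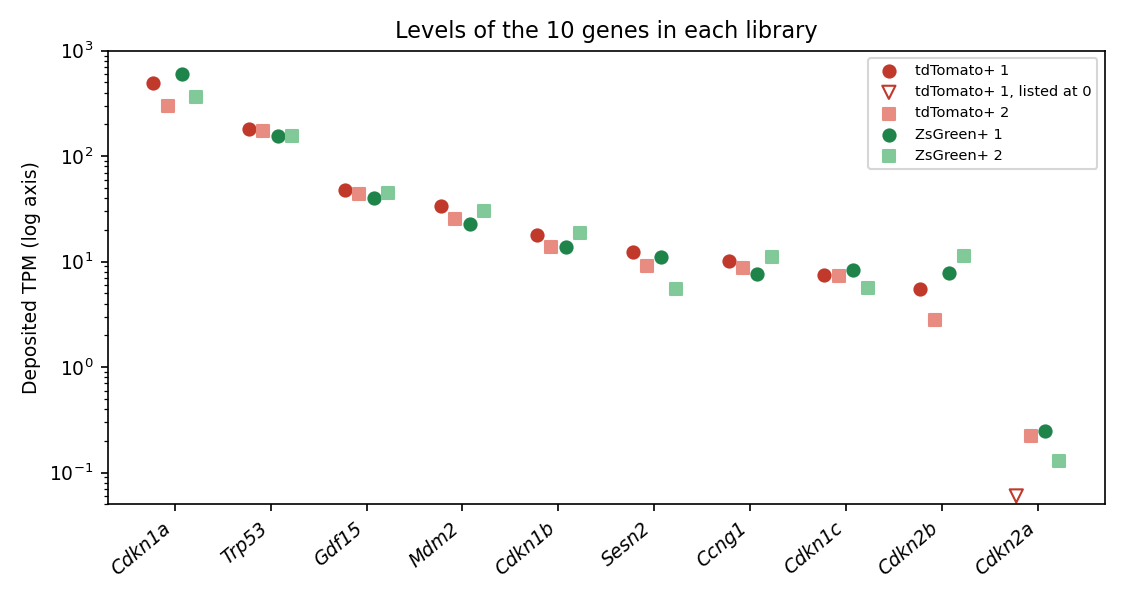
Deposited TPM of each gene (log axis) in the 4 libraries, with genes ordered by their mean; the open triangle is the tdTomato+ library in which Cdkn2a was listed at 0. Cdkn1a stood highest in all 4 libraries, from 298 to 607 TPM, and Cdkn2a lowest, at or under 0.25 TPM.

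Cdkn1a was by far the most abundant of the 10 transcripts and Cdkn2a was close to absent. Levels between genes are compared in TPM, a transcript's share of all transcripts scaled by its length. Cdkn1a ranged from 298 to 607 TPM over the 4 libraries and ranked between 294 and 581 among all genes of the table. Trp53 followed with 155 to 179 TPM, then Gdf15 with 40.1 to 48.2 TPM, Mdm2 with 22.6 to 33.5 TPM and Cdkn1b with 13.7 to 18.8 TPM. The ranges of these 5 genes do not overlap, so their order held in every library. Below them Sesn2 (5.54 to 12.3 TPM), Ccng1 (7.69 to 11.1 TPM), Cdkn1c (5.58 to 8.31 TPM) and Cdkn2b (2.82 to 11.3 TPM) overlap and cannot be ordered. Cdkn2a, whose locus encodes both the Ink4 inhibitor p16 and the Mdm2 antagonist p19Arf, was listed at 0, 0.22, 0.25 and 0.13 TPM in tdTomato+ libraries 1 and 2 and ZsGreen+ libraries 1 and 2. Those values rest on 0, 2, 2 and 1 reads. A count of 0 allows up to 3 reads, or 0.172 CPM (counts scaled by the library's total) in that library, for counting error only. The level of p16 and p19Arf transcripts in either group was therefore not measurable at this depth.

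Among the CDK inhibitor families Cdkn1a made up most of the transcripts in every library. Summed over the 7 inhibitors of both families, with Cdkn2c and Cdkn2d added to the 5 above, the level was 608 and 417 TPM in tdTomato+ cells and 704 and 472 TPM in ZsGreen+ cells. Cdkn1a took 81.7% and 71.4% of it in tdTomato+ cells and 86.2% and 76.7% in ZsGreen+ cells. The other Cip/Kip members, Cdkn1b and Cdkn1c, together took 3.12% to 5.16%. The Ink4 members took 10.7% to 23.6%, and most of that was Cdkn2d, which encodes the Ink4 inhibitor p19Ink4d, at 51.4 to 76.6 TPM. Cdkn2b alone took 0.677% to 2.4%. The sum moved between libraries with Cdkn1a, and the groups overlapped in it.

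**Figure D2:**
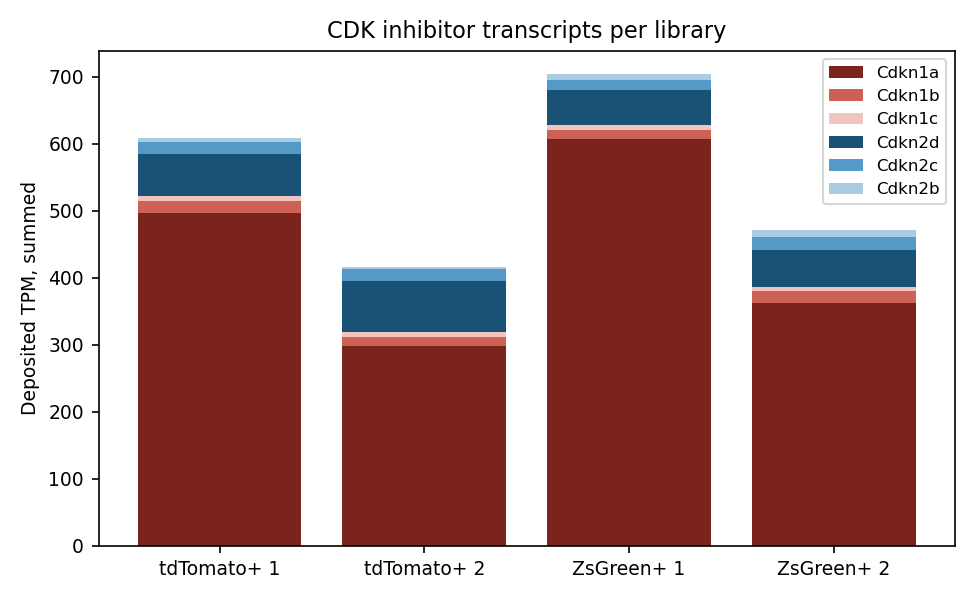
Deposited TPM of the CDK inhibitor genes, stacked for each library (bars start at 0; Cdkn2a, at or under 0.25 TPM, is not drawn). Cdkn1a is the largest block in all 4 bars, and the first library of each group has the taller bar.

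None of the 10 genes passed the test between tdTomato+ and ZsGreen+ cells. Of the 10, 9 had enough counts to be tested, and edgeR's quasi-likelihood test with Benjamini-Hochberg adjustment over 13177 genes called 0 of them at an adjusted p under 0.05. Over all genes tested it called 40, or 0.304%. At an unadjusted p under 0.05 there was 1 of the 9, Cdkn2b, where 8.77% of all genes reached that level. By log2 fold change, tdTomato+ over ZsGreen+, 3 of the 9 were above and 6 below 0. Their median was -0.09, beside -0.01 over all genes tested, and their median absolute value was 0.13, beside 0.22. With limma on log2 TPM plus 1, a scaling that moved the median of all genes to 0.12, the split was 6 above and 3 below. CPM values of both groups did not overlap for 1 of the 9 genes, Cdkn2b, while 38.1% of all genes tested showed such a separation in either direction. DESeq2 and limma-voom also called 0 of the 9, where they called 2.5% and 0.25% of all genes. With 2 libraries a group an exact two-sided permutation test cannot go below p = 0.333, so none is given.

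**Figure D3:**
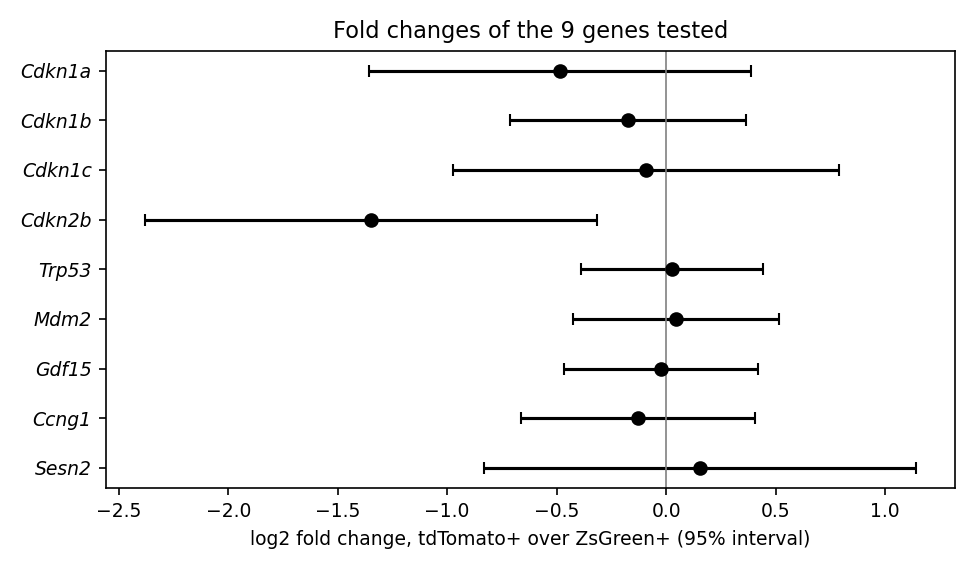
Log2 fold change, tdTomato+ over ZsGreen+, of the 9 genes tested, with its 95% interval from edgeR's quasi-likelihood fit; the line at 0 is no difference. The interval of Cdkn2b, from -2.38 to -0.31, is the one that does not take in 0, and its adjusted p over all genes was 0.391.

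Cdkn2b, the Ink4 inhibitor p15 that is known to respond to TGF-beta, stood lower in tdTomato+ cells without passing the test. It was read at 4.07 and 2.21 CPM in tdTomato+ libraries 1 and 2 and at 7.15 and 8.82 CPM in ZsGreen+ libraries 1 and 2. Both tdTomato+ libraries thus lay below both ZsGreen+ libraries, a separation in that direction that 18.2% of all genes tested showed. The underlying reads were 74, 42, 113 and 161. The log2 fold change was -1.35 (SE 0.44, 95% interval -2.38 to -0.31, edgeR adjusted p = 0.391), and 94.6% of all genes tested had a smaller absolute value. Without tdTomato+ replicate 2 it was -0.95 (edgeR adjusted p = 1.00). Cdkn2b lies at positions 89306289 to 89311032 of chromosome 4 in GRCm38, beside Cdkn2a at 89274473 to 89294619.

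Markers of other cells are given beside Cdkn2b; edgeR called 4 lymphatic markers and Acta2 among them, and none of the fibroblast, macrophage or alveolar lists. Of 8 lymphatic endothelial markers tested 4 fell in tdTomato+ cells by edgeR's test, and all but Lyve1 lay below 0 by log2 fold change. The 4 were Thy1 (-2.96, SE 0.24), Fxyd6 (-2.39, SE 0.29), Mmrn1 (-3.10, SE 0.39) and Reln (-3.20, SE 0.41). Without Lyve1, the most abundant, the list summed to 217 and 175 CPM in the tdTomato+ libraries against 574 and 689 CPM in the ZsGreen+ ones. With it the sums were 720 and 1014 CPM against 981 and 1281 CPM, and overlapped between groups. Prox1, the lymphatic lineage regulator, stood at 4.13 and 3.78 CPM against 6.9 and 17.9 CPM. Sums of 11 fibroblast markers were 244 and 449 CPM against 102 and 126 CPM, and those of 11 alveolar epithelial markers 415 and 499.8 CPM against 280 and 155 CPM. Sums of 12 macrophage and monocyte markers were 5401 and 2564 CPM against 3002 and 702 CPM, also overlapping. Sums of 11 pericyte and smooth muscle markers, Acta2 included, were 1667 and 2360 CPM against 1417 and 1013 CPM. Without Acta2, the gene whose activity the recorder reads, they were 1364 and 1833 CPM against 1330 and 930 CPM. Nearly all of that was Tagln alone, at 1336 and 1787 CPM against 1300 and 894 CPM. By log2 fold change 8 of the 11 markers lay above 0 and 3 below. Above 0 too were 11 of the 11 fibroblast, 11 of the 12 macrophage and monocyte and 10 of the 11 alveolar epithelial markers. No marker of these 5 lists was at 0 in any library. Of 5 mesothelial markers Upk3b, Wt1 and Lrrn4 were at 0 in at least 1 library. Msln was at 1.71 and 4.52 CPM in the tdTomato+ libraries against 1.84 and 1.7 CPM in the ZsGreen+ ones (0.82, SE 0.61). Gpm6a went the other way, at 2.04 and 2.73 CPM against 6.07 and 15.1 CPM (-2.15, SE 0.52), and edgeR called neither. The part of these cells in the values of Cdkn2b and of the other genes given here was not tested. In bulk samples fewer cells of a type and less RNA per cell cannot be told apart. The 12 endothelial markers, Pecam1 and Cdh5 among them, were read in every library. They summed to 14108 and 13592 CPM in the tdTomato+ libraries against 18066 and 14539 CPM in the ZsGreen+ ones, lower in both tdTomato+ libraries. By log2 fold change 10 of the 12 lay below 0 and 2 above, with Cldn5 lowest at -0.84 (SE 0.22), and edgeR called none of them.

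The Cip/Kip genes did not separate the groups. Cdkn1a, the inhibitor p21 and the best known p53 target, stood at 527 and 332 CPM in the tdTomato+ libraries against 800 and 403 CPM in the ZsGreen+ ones. The groups overlapped, since tdTomato+ library 1 lay above ZsGreen+ library 2. The log2 fold change was -0.48 (SE 0.37, 95% interval -1.36 to 0.39, edgeR adjusted p = 0.826), which as a fold runs from 0.391 to 1.31. It took the other sign without ZsGreen+ replicate 1, at 0.10 (edgeR adjusted p = 0.925). Cdkn1b, the inhibitor p27 that holds quiescent cells in G1, was at 24.5 and 19.7 CPM against 23.1 and 26.8 CPM. Its log2 fold change was -0.18 (SE 0.23, 95% interval -0.71 to 0.36), so a fold below 0.61 or above 1.29 lies outside the interval. Cdkn1c, the imprinted inhibitor p57, was at 8.03 and 8.14 CPM against 11 and 6.24 CPM, with both tdTomato+ libraries between the ZsGreen+ ones. Its log2 fold change was -0.09 (SE 0.37, 95% interval -0.97 to 0.79). The edgeR adjusted p of Cdkn1b and Cdkn1c was 0.909 and 0.976.

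Cdkn1a varied more between libraries of one group than between the groups. The ratio of the higher to the lower library was 1.59 in tdTomato+ and 1.99 in ZsGreen+ cells, against medians of 1.11 and 1.2 over 2078 genes averaging 100 CPM or more. Of those genes 96.1% and 96.6% had a smaller ratio in the tdTomato+ and the ZsGreen+ group. In both groups the library numbered 1 was the higher. Several stress-induced genes, named here after their values were seen, had the same ordering of libraries within each group. Btg2, an antiproliferative p53 target and early response gene, was at 1103 and 589 CPM in the tdTomato+ libraries against 1453 and 615 CPM in the ZsGreen+ ones. Atf3, a stress-induced transcription factor, was at 970 and 665 CPM against 1202 and 584 CPM. Ddit4, an mTOR inhibitor induced by stress, was at 418 and 204 CPM against 480 and 161 CPM. Gadd45a, a p53 target of the DNA damage response, was at 33.9 and 16.4 CPM against 30.1 and 13.7 CPM. The endothelial cadherin Cdh5, which is no stress gene, had it too, at 1803 and 1112 CPM against 2422 and 1469 CPM. Other genes of the same lists had the opposite ordering in both groups. Trib3 was at 18.7 and 25.7 CPM against 24.8 and 31.9 CPM, and Plk2 at 256 and 284 CPM against 226 and 338 CPM. What share of all genes has library 1 above library 2 in both groups was not counted. Of the 32 other p53 targets tested, 5 had the full order of the 4 libraries that Cdkn1a shows (Bax, Btg2, Eda2r, Ei24 and Xpc), and 4.32% of all genes tested did. How the cells of each library were handled is not given in the labels, and the part of handling in this spread was not tested.

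Trp53 and its ligase Mdm2 differed between groups by less than their spread. Trp53 was at 177 and 181 CPM in the tdTomato+ libraries against 189 and 162 CPM in the ZsGreen+ ones. The tdTomato+ libraries sat between the ZsGreen+ ones, and the log2 fold change was 0.03 (SE 0.18, 95% interval -0.39 to 0.44, edgeR adjusted p = 0.987). In folds that interval runs from 0.763 to 1.36. Mdm2, the ligase that marks p53 for degradation, was at 62 and 48.9 CPM against 50.7 and 56.8 CPM. Its log2 fold change was 0.04 (SE 0.20, 95% interval -0.43 to 0.51, edgeR adjusted p = 0.979). Its estimated reads were not whole in any library (1126.21 in tdTomato+ library 1, for example), which is how RSEM reports reads divided among genes they fit equally. Protein levels of p53, through which the pathway is mostly controlled, were not measured. Trp53 spans 69580348 to 69591873 of chromosome 11 and Mdm2 117688875 to 117710758 of chromosome 10 in GRCm38.

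Gdf15, Ccng1 and Sesn2 carried no group difference that the test called either. Gdf15, a secreted stress cytokine induced by p53 and by the integrated stress response, had the lowest ratio of its highest to its lowest library among the 9 genes tested. It was read at 36.6 and 35 CPM in the tdTomato+ libraries against 37.4 and 35.4 CPM in the ZsGreen+ ones. The highest and the lowest library of each group differed by a ratio of 1.05 and 1.06, and the log2 fold change was -0.02 (SE 0.19, 95% interval -0.47 to 0.42, edgeR adjusted p = 0.989). A fold below 0.723 or above 1.34 lies outside that interval. Ccng1, cyclin G1, which carries the p53 match printed above and acts with a phosphatase on Mdm2, was at 20.6 and 18.6 CPM against 19.3 and 23.6 CPM. Its log2 fold change was -0.13 (SE 0.22, 95% interval -0.66 to 0.40, edgeR adjusted p = 0.943). Sesn2, sestrin 2, a leucine-sensing inhibitor of mTORC1 that p53 and Atf4 both induce, was at 18.6 and 14.4 CPM against 20.9 and 8.82 CPM. Its ZsGreen+ libraries differed by a ratio of 2.37, and the tdTomato+ libraries lay between them. Its log2 fold change of 0.16 (SE 0.42, 95% interval -0.83 to 1.14, edgeR adjusted p = 0.970) became 0.91 without ZsGreen+ replicate 1 (edgeR adjusted p = 0.289) and -0.34 without ZsGreen+ replicate 2 (edgeR adjusted p = 0.577).

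**Figure D4:**
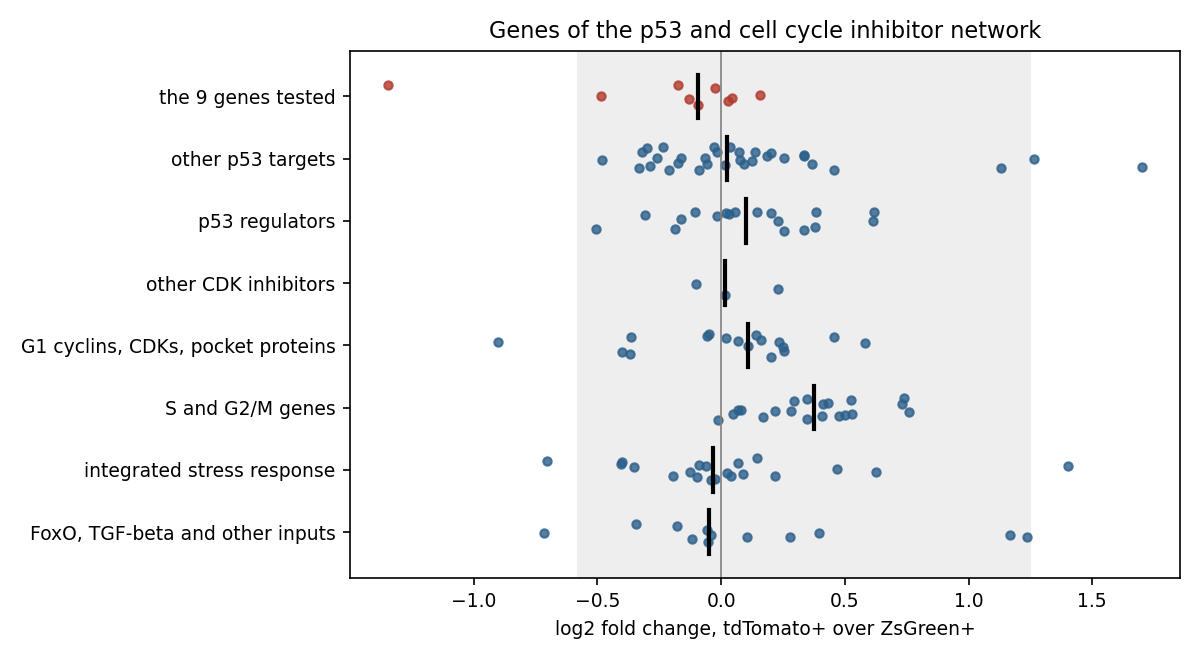
Log2 fold change, tdTomato+ over ZsGreen+, of each gene tested in the 9 genes of the set and in 7 lists around them; bars are medians and the grey band holds the 5th to 95th percentile of all genes tested (-0.58 to 1.25). Medians of the lists lie between -0.05 and 0.38, and no point is a called gene.

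In 7 lists around the set edgeR called 0 genes. At an unadjusted p under 0.05 there were 3 other p53 targets, 1 gene of the G1 list and 1 of the integrated stress response. The list of FoxO, TGF-beta and other inputs held 3. Of all genes tested 8.77% reached that level. DESeq2 called 3 genes of the lists, beside 2.5% of all genes. List medians moved when single libraries were left out. They ran from -0.07 to 0.16 for other p53 targets and 0.06 to 0.24 for p53 regulators. For the 3 other CDK inhibitors they ran from -0.27 to 0.40, and for the G1 list from -0.11 to 0.38. The range was -0.18 to 0.07 for the integrated stress response and -0.11 to 0.18 for FoxO, TGF-beta and other inputs. The sign of the median thus turned with a single library in these lists, except for the p53 regulators. Other p53 targets showed a median log2 ratio of 0.03 over 32 genes, 17 above and 15 below 0. At the edges stood Perp, a desmosomal protein and death effector, at 3.03 and 3.83 CPM against 1.46 and 0.657 CPM (1.70, SE 0.60), and Pidd1, a scaffold of caspase 2, at 9.46 and 10.1 CPM against 3.04 and 5.86 CPM (1.13, SE 0.41). Ddb2, a DNA damage sensor, had 1.27 (SE 0.57). Phlda3, an inhibitor of Akt, was at 118 and 113 CPM against 184 and 139 CPM (-0.48, SE 0.19). These 4 had edgeR adjusted p from 0.453 to 0.598, so they lay on both sides of 0 and none passed. The 64 other genes that the deposited KEGG annotation places in p53 signalling, a list taken after values were seen, gave a median of 0.09 over 61 tested and 0 calls. That annotation holds 6 of the 10 genes (Cdkn1a, Cdkn2a, Trp53, Mdm2, Ccng1 and Sesn2). Beyond Cdkn1a and Ccng1, 27 genes had a window that matched the p53 consensus within 1 mismatch. Of these 9 are in the table and 5 were tested, and their median was -0.31 with 0 called. Among them Rps27l, a known p53 target, was at 149 and 143 CPM against 200.2 and 164 CPM (-0.32, SE 0.18), and Gtse1, a negative regulator of p53, at 4.68 and 6.98 CPM against 5.38 and 5.09 CPM (0.16, SE 0.38).

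Regulators of p53 showed a median log2 ratio of 0.10 over 18 genes tested, 12 above and 6 below 0. Mdm4, the p53-binding relative of Mdm2, was at 24 and 20.4 CPM against 13.7 and 20.3 CPM (0.38, SE 0.27). The checkpoint kinase Atr had 0.62 (SE 0.37) and Trp53bp1 0.33 (SE 0.23). Hipk2 went the other way, at 67.6 and 69 CPM against 70.6 and 98.4 CPM (-0.31, SE 0.21). The paralogs Trp63 and Trp73 had too few counts to be tested. In the list of other CDK inhibitors, Cdkn2c (-0.10), Cdkn2d (0.23) and Cdkn3 (0.02) had log2 fold changes near 0. Cdkn3 is on that list by its name and is not among the inhibitors of both families summed above. FoxO, TGF-beta and other inputs to the CDK inhibitor genes had a median of -0.05 over 12 genes, 5 above and 7 below 0. The other inputs on that list are Klf4, Klf2, Sp1, Myc, Cebpa and Zbtb17. Cebpa was at 16.9 and 11.1 CPM against 8.67 and 3.29 CPM (1.24, SE 0.49). Smad3, a TGF-beta effector known to act on Cdkn2b, was at 26.2 and 20.8 CPM against 12.1 and 8.82 CPM, higher in both tdTomato+ libraries where Cdkn2b was lower in both (1.17, SE 0.28, edgeR adjusted p = 0.216). Its partner Smad4 was at 42.7 and 46.6 CPM against 54.7 and 92 CPM (-0.72, SE 0.27, edgeR adjusted p = 0.487), and Foxo1, which can drive Cdkn1b, at 0.40 (SE 0.17). The groups did not overlap in Cebpa, Smad3, Smad4 and Foxo1, as in 38.1% of all genes tested. None of them was called by edgeR, while DESeq2 called Smad3 (adjusted p = 0.0305).

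Among the targets of the inhibitors, cyclin D1 stood apart by size. Ccnd1, the G1 cyclin that pairs with Cdk4 and Cdk6, was at 427 and 374 CPM in the tdTomato+ libraries against 717 and 780 CPM in the ZsGreen+ ones. Both tdTomato+ libraries lay well below both ZsGreen+ libraries, and the log2 fold change was -0.90 (SE 0.19, 95% interval -1.36 to -0.45), but its edgeR adjusted p was 0.172. DESeq2 called it (adjusted p = 0.000307). Ccnd3 was at 261 and 337 CPM against 379 and 391 CPM (-0.36, SE 0.20). The kinase Cdk4 was at 219 and 247 CPM against 239 and 219.9 CPM, with a log2 fold change of 0.02 (SE 0.18). The 17 genes of this G1 list had a median of 0.11. S and G2/M genes, which p21 is known to hold down, had a median of 0.38 over 20 genes, 19 of them above 0, beside -0.01 over all genes tested. Without tdTomato+ replicate 2 this median was 0.05, and without ZsGreen+ replicate 1 it was 0.11. Mki67, a marker of cycling cells, was at 31.7 and 51 CPM against 12.7 and 36.8 CPM (0.74, SE 0.48), and Rrm2, a subunit of ribonucleotide reductase, at 17.6 and 35.2 CPM against 8.67 and 23 CPM (0.73, SE 0.50). Ccnb2 was at 14.9 and 18.6 CPM against 11.6 and 11.7 CPM (0.52, SE 0.26), the 1 gene of the 20 without overlap. That is a smaller share than the 38.1% of all genes tested. By edgeR's test 0 of the 20 had an unadjusted p under 0.05. Birc5 was at 16.5 and 28.8 CPM against 14.1 and 17.3 CPM (0.53, SE 0.31). The groups overlapped in Mki67, Rrm2 and Birc5. In both groups the library with more Cdkn1a had less Mki67, Rrm2, Ccnb2 and Birc5. Plk1 and Cdc25c of the same list did not keep that order in the ZsGreen+ group. What share of all genes runs opposite to Cdkn1a in both groups was not counted.

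The integrated stress response, which shares Gdf15 and Sesn2 with p53, showed a median log2 ratio of -0.03 over 20 genes. Nupr1, a stress-induced chromatin protein, was at 58 and 39.4 CPM in the tdTomato+ libraries against 21.3 and 15.6 CPM in the ZsGreen+ ones (fold 2.64, SE 0.27 on the log2 scale, edgeR adjusted p = 0.144). DESeq2 called it (adjusted p = 0.00124). The transcription factor Atf4 was at 201 and 158 CPM against 271 and 203 CPM (-0.40, SE 0.22), and its targets Asns, asparagine synthetase (-0.40, SE 0.17), and Chac1, a glutathione-degrading enzyme (-0.71, SE 0.31), lay below 0 as well. Over the whole list 9 genes lay above 0 and 11 below. Vldlr (0.62, SE 0.41) and Phgdh (0.47, SE 0.32) were among those above. The groups did not overlap in Nupr1, Atf4, Asns and Chac1, 4 of the 20 genes, a smaller share than the 38.1% of all genes tested, and edgeR called none of them. These 4 genes were named because they had the lowest p of their list. That Gdf15 and Sesn2 had smaller absolute fold changes than these follows from that choice, and the difference between genes was not tested.

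Libraries held 17050673 to 18574737 counts with 14969 to 15747 genes detected. The recorded gene Acta2 stood at 304 and 528 CPM in the tdTomato+ libraries against 87.6 and 82.9 CPM in the ZsGreen+ ones (log2 fold change 2.29, SE 0.29, edgeR adjusted p = 0.0432), the direction that the recorder's labels give.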

How the data were processed

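RNA of sorted lung endothelial cells was amplified over the whole transcriptome before library preparation, per the labels' protocols, which can add spread between libraries. RSEM 1.3.1 and DESeq2 1.4.5 and the builds mm10 and GRCm38 are named in the submitters' processing notes; the sources used here give neither strandedness nor counting settings. The authors deposited 4 values per gene and library: estimated counts (16.2% to 17.9% of them not whole), TPM, FPKM, and a normalized count signal. FPKM and the signal were not used. Estimated counts were rounded and tested with edgeR 4.0.16 (R 4.3.3; TMM, filterByExpr with a minimum count of 10, quasi-likelihood F-test, two-sided, Benjamini-Hochberg over all genes). CPM use TMM-scaled library sizes. Each standard error is the size of the log2 fold change divided by sqrt(F), and intervals use the fit's t quantile. The test was tried on simulated data first.

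The genes and 15 lists of 205 genes were chosen with earlier results of these data known. Named are all 10 genes and, per list, up to 4 genes of lowest p that average 1 CPM or more, and Acta2. Other genes (Btg2, Atf3, Ddit4, Gadd45a, Trib3, Plk2, Plk1, Cdc25c, Vldlr, Phgdh, Cdk4, Cdh5, Prox1, Lyve1 and the genes with a p53 match) were picked once values were known. Gene spans are from RefSeq for GRCm38.p6 and printed where the deposited span is the same. Alternatives were DESeq2 1.42.0, limma-voom (limma 3.58.1), limma on log2 TPM, RLE or upper quartile factors, other count filters, totals without haemoglobin and ribosomal protein genes, leaving out each library, and a replicate block.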

Additional observations from a re-analysis of the deposited data

How the results depend on the processing

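No alternative tried, other than the replicate block, called any of the 10 genes. The count of all genes called, 40 by edgeR, was 330 with DESeq2, 128 without a filter on low counts, 22 with limma on log2 TPM plus 0.1, 0 with limma on log2 TPM plus 1 without a filter, and 1 to 162 when single libraries were left out. Genes called on the 7 lists, 0 by edgeR, were 3 with DESeq2 (Smad3, Ccnd1 and Nupr1) and 1 without a filter (Nupr1). Same-numbered libraries are not said to share a mouse, and with 2 pairs the data cannot show it; across genes, the differences between library 1 and library 2 of both groups correlated at r = 0.469. With the replicate block 934 genes (7.09%) were called, 9 of them on the lists, and 1 of the 10 genes, Cdkn2b (log2 fold change -1.39, edgeR adjusted p = 0.0119). TPM moved the median of all genes to 0.12 (plus 1), 0.13 (plus 0.1) and 0.10 (plus 1 without a filter), and against that shift Gdf15 stood at 0.12, 0.12 and 0.12, Cdkn1c at 0.10, 0.12 and 0.10 and Ccng1 at 0.0252, 0.0294 and 0.0252, each with the sign turned. Upper quartile factors gave 0.0219 for Gdf15. When single libraries were left out the log2 fold change ran from -0.90 to 0.10 for Cdkn1a, -0.45 to 0.38 for Cdkn1c, -0.0785 to 0.15 for Trp53, -0.14 to 0.23 for Mdm2, -0.0639 to 0.0341 for Gdf15, -0.26 to 0.0227 for Ccng1 and -0.34 to 0.91 for Sesn2, so these 7 signs rest on single libraries; the cause was not tested. Cdkn2b (-1.85 to -0.95) and Cdkn1b (-0.34 to -0.00018) kept their sign. Of 105 recomputed list medians 92 moved by less than the spread between libraries, some of them with the sign turned. That of the G1 list, for example, was 0.11 with all libraries and -0.11 without ZsGreen+ replicate 1.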
